A study of Mus musculus with 40 samples.

Results

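The genes described here are 35 genes that mark astrocytes in the mouse brain, followed in bulk RNA sequencing of the hippocampus (HX) and the frontal cortex (FX) of gnotobiotic mice. They were taken as a list of named genes and matched by Ensembl identifier to the deposited count tables. All 35 were found among the 47643 genes of the tables, and all 35 had a summed count of 10 or more in each comparison, so all were tested. The recipients were wild-type Swiss Webster mice, born germ-free and 6 to 8 weeks old, which were gavaged with human stool and fed a control chow throughout. The stool came from 10 human donors with refractory epilepsy, collected before (pre-KD) and after the start (post-KD) of a clinical ketogenic diet, so the ketogenic diet was given to the donors and never to the mice. Brain tissue was taken on day 4 after colonization. There were 4 groups of 10 libraries, HX pre-KD, HX post-KD, FX pre-KD and FX post-KD, with 1 library per donor in each. By the study's methods 6 mice per cohort were dissected, and each library carries 1 donor label, so spread between mice of a cohort cannot be seen. No group was left germ-free or given a mouse microbiota, so every comparison is between mice that carry human microbes.

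Astrocytes are the glial cells that take up glutamate and potassium released by firing neurons, move water along the vessel wall and supply neurons with metabolic substrates. They are joined to each other by gap junctions, and they secrete lipoproteins and matrix proteins that shape synapses. In epilepsy, loss of potassium and water handling at astrocyte end feet and a reactive state with a denser GFAP skeleton are well known.

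Libraries held 1140756 to 1947416 counts in the hippocampus and 1188447 to 2095352 in the frontal cortex. On the first 2 principal components 3 libraries stood apart, the HX pre-KD libraries of donors 5 and 7 and the FX pre-KD library of donor 1. The summed counts of 4 Y-linked genes were 139 to 276 in the 8 libraries from recipients of donors 9 and 10 and 0 to 27 in the other 32, although the methods describe female mice. Tissue labels held: of 7 hippocampal identity genes 6 were higher in the hippocampus, led by *Spink8* (log2 difference 5.14), *C1ql2* (4.75) and *Dsp* (2.58), and of 7 cortical genes 3 were lower there, *Foxp2* (-2.53), *Lamp5* (-1.33) and *Rorb* (-0.57), while *Fezf2* was higher (0.88). The libraries are of whole tissue, in which neurons, oligodendrocytes, microglia, vessels and choroid plexus are also present. For every value that follows, the number of astrocytes, the RNA per astrocyte and the share of other cells cannot be told apart.

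The defining astrocyte genes were present in both regions. Levels are given as CPM, counts scaled to library size, set together over all 40 libraries with edgeR's TMM factors. *Gfap*, the intermediate filament of the astrocyte skeleton, ranged from 8.91 to 91.8 CPM with a median of 56.1 in the hippocampus and from 10.6 to 81.7 CPM with a median of 36.1 in the frontal cortex. *Sox9*, the transcription factor that sets astrocyte identity, lay at 35.0 to 147 CPM (median 87.9) and 51.5 to 139 CPM (median 83.2), respectively. *Aldh1l1*, a folate enzyme widely used as a pan-astrocyte label, was the weakest of the defining genes here, with medians of 11.2 and 16.4 CPM, and it had no count in 2 hippocampal libraries. The low end of the list was held by *F3* (tissue factor), with a mean of 4.75 counts per library in the hippocampus and 4.50 in FX, and by *Agt* (angiotensinogen), with means of 13.1 and 4.80 counts. Values of these genes in a single library therefore carry little weight.

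Summed over the 35 genes, the level was 8523 to 10915 CPM in the 20 hippocampal libraries and 7915 to 10452 CPM in the 20 frontal cortical libraries. Most of it came from 5 genes. *Sparcl1* (hevin, a matrix protein that promotes synapse formation), *Apoe* (the main lipid carrier of the brain), *Cpe* (carboxypeptidase E, which trims neuropeptide precursors), *Cst3* (cystatin C, an inhibitor of cysteine proteases) and *Ndrg2* together held 64.7% of the sum in the hippocampus and 64.1% in FX. Of these *Sparcl1*, *Apoe* and *Cst3* are secreted. Abundant members were among the less specific ones, since *Apoe* and *Cst3* are also strong in microglia and *Cpe* and the granule protein gene *Scg3* in neurons. Divided by exon length, the level was highest for *Sparcl1* (861 CPM per kb in the hippocampus and 803 in FX) and *Apoe* (627 and 605), and lowest for *F3* (1.20 and 1.03). The sources name both a whole-transcript kit and a 3′ kit for the libraries, and under a 3′ kit a division by length would not apply.

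**Figure D1:**
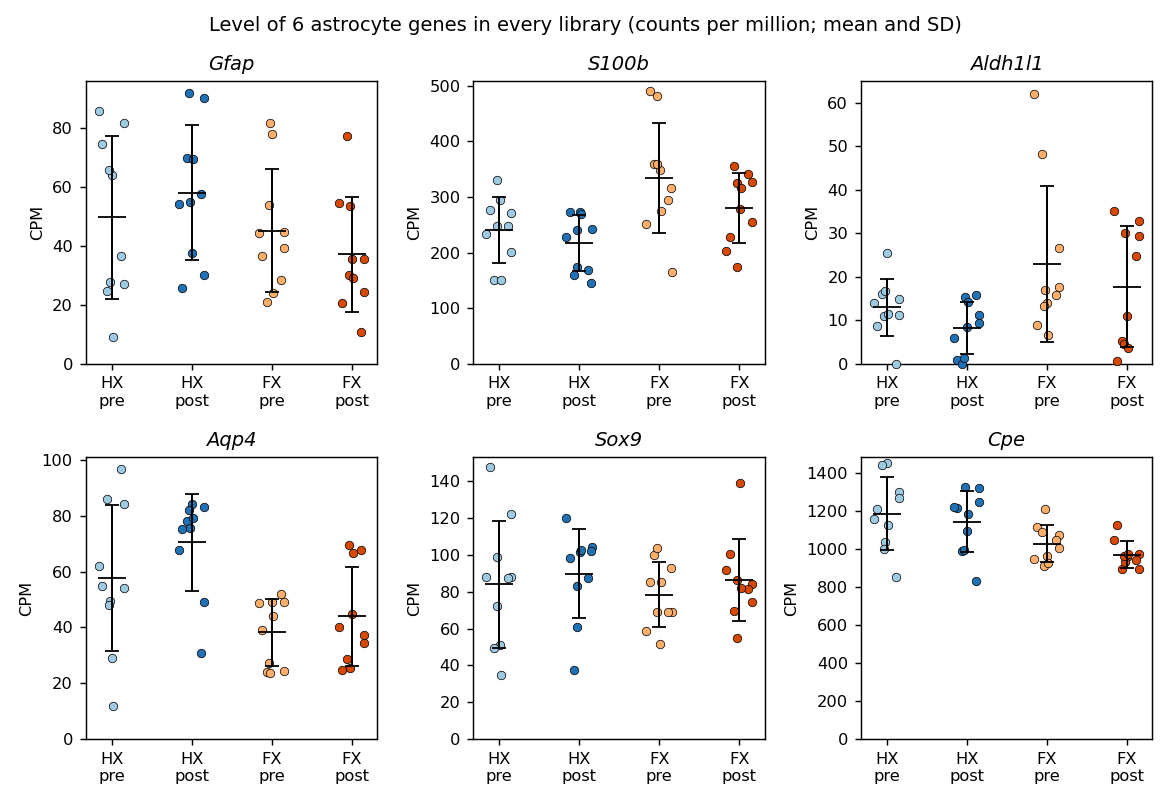
Level of *Gfap*, *S100b*, *Aldh1l1*, *Aqp4*, *Sox9* and *Cpe* in CPM (vertical axis, from 0) in each of the 40 libraries, grouped as hippocampus (HX) and frontal cortex (FX) of recipients of pre-KD and post-KD stool. Points are libraries (10 per group), the horizontal bar is the mean and the error bar the SD; *S100b* lies higher in the frontal cortex (164 to 491 CPM) than in the hippocampus (145 to 329.7 CPM) with overlap, and the pre-KD and post-KD groups overlap for all 6 genes.

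Spread among the 20 libraries of a region includes that between donors and between pre-KD and post-KD recipients. For every one of the 35 genes in both regions, the variance between the 20 libraries exceeded that of Poisson counting, by 4.18-fold for *F3* to 59.4-fold for *Sparcl1* in the hippocampus and by 4.49-fold to 61.6-fold for the same genes in the frontal cortex. The coefficient of variation had a median of 35.4% over the members in the hippocampus and 31.0% in FX. It ran from 12.4% for *Sparcl1* to 109% for *Agt* in the hippocampus and from 8.70% for *Cpe* to 116% for *Agt* in the frontal cortex. Members under 100 counts per library (19 in the hippocampus and 17 in FX) had a median of 53.7% and 48.9%, while the others had 22.6% and 19.4%. The median excess of variance over counting was 15.4-fold for hippocampal members under 100 counts, beside 15.2-fold for all genes of 10 to 100 counts, and 25.9-fold for the members above that, beside 18.4-fold. In the frontal cortex these were 10.2-fold beside 10.1-fold and 20.5-fold beside 12.6-fold. The excess was larger at higher counts, and members and all genes were not matched for abundance within these ranges.

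**Figure D2:**
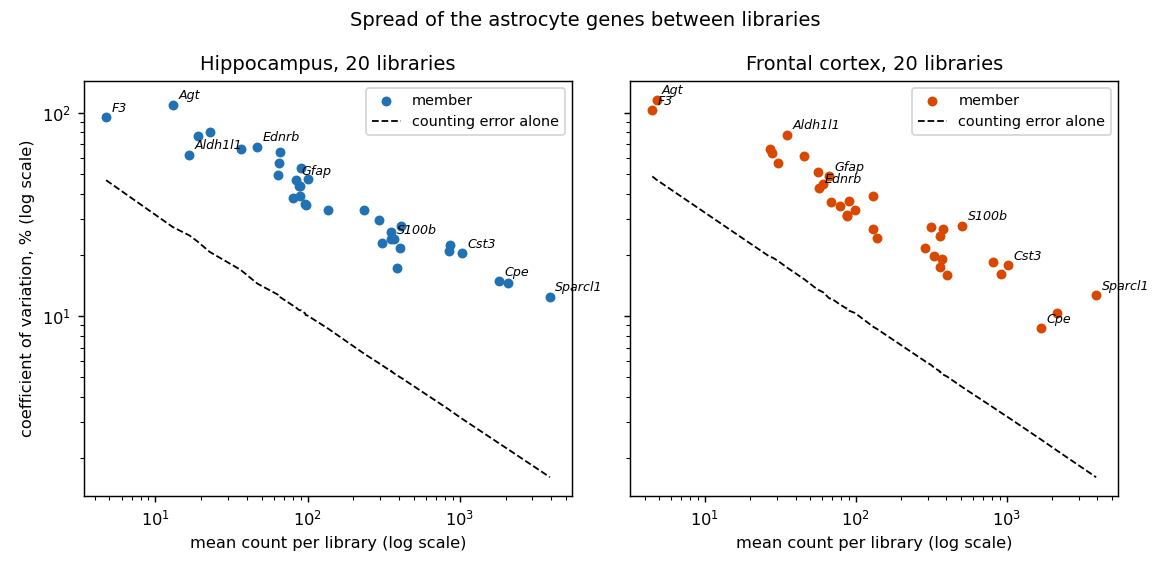
Coefficient of variation over the 20 libraries of each region (vertical axis, percent, log scale) against the mean count per library (horizontal axis, log scale) for the 35 astrocyte genes; each point is a gene and the dashed line is the value that counting error alone would give. All points lie above the line, from *Agt* at 109% in the hippocampus and 116% in FX down to *Sparcl1* at 12.4% and *Cpe* at 8.70%.

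To ask whether the donor's diet left a mark on astrocyte genes in the hippocampus, recipients of post-KD stool were compared with recipients of pre-KD stool (10 against 10 libraries). None of the 35 members passed the adjusted threshold of 0.05 (edgeR, quasi-likelihood), where 0.0057% of the 17529 genes tested did. At an unadjusted p under 0.05 there was 1 member, while 10.1% of all genes and 2.32% of the 9509 genes kept by edgeR's own expression filter reached it. With 1 donor left out this number was 0 to 2. DESeq2 called 0 members as well. The median log2 difference over the members was 0.03, beside -0.01 for all genes, with 23 members above 0 and 12 below.

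The 1 member was *Itih3*, a heavy chain that cross-links hyaluronan in the extracellular matrix. It lay at 0 to 18.7 CPM (median 6.62) in the pre-KD libraries, with no count in 3 of them, and at 6.96 to 42.7 CPM (median 22.3) in the post-KD libraries. The groups overlapped, and recipients of 8 of 10 donors were higher post-KD. The log2 difference was 1.43 ± 0.71 (SE; unadjusted p = 0.0465, adjusted p = 0.477), which does not survive adjustment. The unadjusted p was above 0.05 without recipients of donor 1, 3, 5, 6 or 9 (up to 0.137 with 1 donor left out), without the libraries that stood apart (0.0763) and without donors 9 and 10 (0.0974). *Mfge8*, a secreted protein that tags debris for uptake, had -0.32 ± 0.16 (unadjusted p = 0.0529), lower in 5 of 10 donors, and its unadjusted p was under 0.05 with the replicate block, with no filter, without donor 1, 2, 5, 9 or 10, without the libraries that stood apart and without donors 9 and 10 together. *Ndrg2* had an unadjusted p under 0.05 in the last 2 of these settings. In the frontal cortex *Itih3* lay at 0 to 33.9 CPM pre-KD and 7.66 to 38.2 CPM post-KD, with a log2 difference of 0.25 ± 0.46.

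None of the defining genes passed either threshold in the hippocampus. *Gfap* lay at 8.91 to 85.7 CPM pre-KD (median 50.4) and 25.8 to 91.8 CPM post-KD (median 56.1), with a log2 difference of 0.22 ± 0.32. *S100b*, a calcium-binding protein that astrocytes also release, lay at 151 to 329.7 CPM (median 248) and 145 to 273 CPM (median 235). The groups of both genes overlapped. *Aqp4*, the water channel of end feet, lay at 12.1 to 96.8 CPM (median 54.5) and 30.9 to 84.1 CPM (median 76.8), and its log2 difference was 0.28 ± 0.29. *Aldh1l1* lay at 0 to 25.5 CPM (median 12.7) and 0 to 15.7 CPM (median 8.81), and *Sox9* at 35.0 to 147 CPM (median 87.6) and 37.7 to 119.9 CPM (median 99.9). The higher medians of *Aqp4* and *Sox9* and the lower median of *Aldh1l1* post-KD all fell within overlapping groups.

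By role, all 6 genes of water, ion and potassium handling had a log2 difference above 0 in the hippocampus, with a median of 0.22, but none passed either threshold. This group holds *Aqp4*, the potassium channel gene *Kcnj10* (0.24 ± 0.31), *Mlc1*, *Ttyh1*, the sodium pump subunit gene *Atp1b2* and the bicarbonate cotransporter gene *Slc4a4* (0.00 ± 0.18). In the frontal cortex 4 of the 6 were above 0, with a median of 0.04. Among the 7 metabolic enzymes and amino acid transporters 2 were above 0 in the hippocampus (median -0.11) and 4 in the frontal cortex (median 0.00). The connexin genes *Gja1* and *Gjb6*, which form astrocyte gap junctions, had log2 differences of -0.35 ± 0.30 and 0.12 ± 0.36 in the hippocampus and of 0.12 ± 0.23 and -0.06 ± 0.29 in the frontal cortex. No gene of these 3 groups passed either threshold in either region in the edgeR test. Nearest to the unadjusted threshold was *Pla2g7*, a secreted phospholipase, in the frontal cortex, at 3.33 to 37.9 CPM pre-KD (median 18.8) and 5.89 to 69.6 CPM post-KD (median 26.1), with overlapping groups. Its log2 difference was 0.71 ± 0.36 (unadjusted p = 0.0526), higher in 8 of 10 donors, and the unadjusted p was under 0.05 with DESeq2, with no filter, with the Y-linked covariate and without donor 7 or 10.

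**Figure D3:**
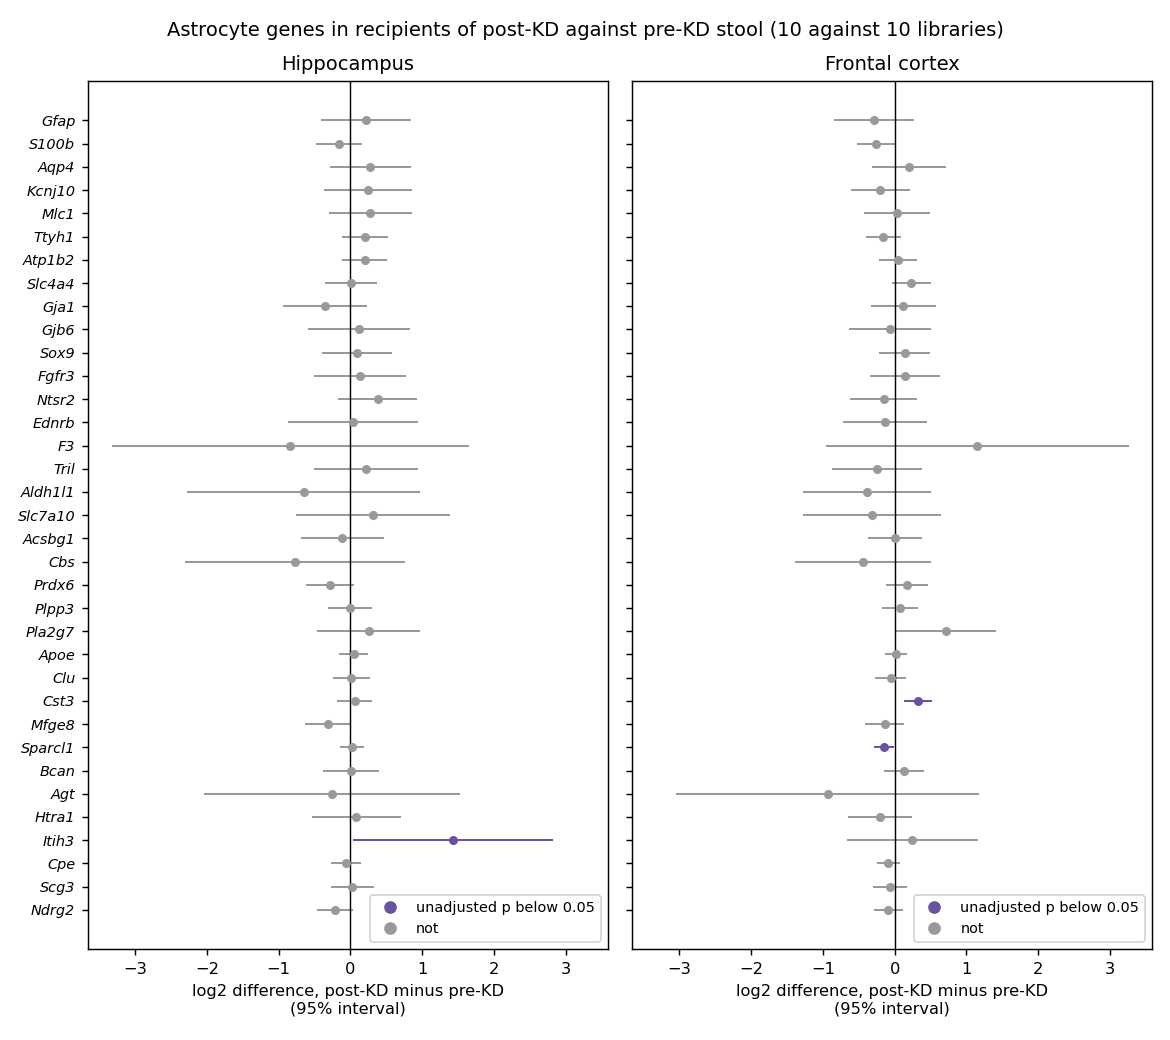
Log2 difference between recipients of post-KD and pre-KD stool (horizontal axis) for the 35 astrocyte genes (rows, ordered by role) in the hippocampus and the frontal cortex, 10 against 10 libraries in each; points are estimates, bars approximate 95% intervals, and purple marks an unadjusted p under 0.05. Purple points are *Itih3* in the hippocampus (1.43) and *Cst3* (0.32) and *Sparcl1* (-0.15) in the frontal cortex. The widest bars are those of *F3*, *Agt*, *Aldh1l1* and *Cbs* in the hippocampus and of *F3* and *Agt* in the frontal cortex.

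In the frontal cortex 0 of 35 members passed the adjusted threshold, beside 0.0056% of 17873 genes, and DESeq2 again called 0, beside 0.0112%. An unadjusted p under 0.05 was reached by 2 members, beside 9.68% of all genes and 4.06% of the 10033 genes left by the expression filter. It was reached by 1 to 4 members with 1 donor left out and by 1 to 4 under the other settings, where *S100b*, *Pla2g7*, *Kcnj10*, *Slc4a4* or *Tril* joined in some. The median over the members was -0.06, beside 0.01 for all genes, with 16 above 0 and 19 below.

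*Cst3* had the smallest p of the list. Its level was 444 to 678 CPM (median 534) in the pre-KD libraries and 536 to 820.3 CPM (median 677) in the post-KD libraries. Recipients of all 10 donors were higher post-KD, although the groups overlapped. The log2 difference was 0.32 ± 0.10, a 1.25-fold higher level (unadjusted p = 0.00152, adjusted p = 0.122). In the hippocampus *Cst3* lay at 445 to 963 CPM pre-KD and 566 to 826 CPM post-KD, higher in 5 of 10 donors, with a log2 difference of 0.06 ± 0.13. Microglia also make cystatin C. The summed level of 8 microglial genes was 144 to 255 CPM in the FX pre-KD libraries and 168 to 286 CPM in the FX post-KD libraries, none of the 8 passed the adjusted threshold, and the part of microglia in the *Cst3* value was not tested.

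*Sparcl1* lay at 2174 to 3403 CPM (median 2345) pre-KD and 2021 to 2506 CPM (median 2253) post-KD in the frontal cortex. The highest pre-KD value, that of donor 8, stood well above the other 9. The log2 difference was -0.15 ± 0.07 (unadjusted p = 0.0460, adjusted p = 0.493), with 6 of 10 donors lower post-KD. Without recipients of donor 8 it was -0.09 (unadjusted p = 0.216), and the unadjusted p was also above 0.05 without donor 2, 6, 7 or 10, with the replicate block (0.0601) and with RLE size factors (0.0510). In the hippocampus the levels were 1815 to 3362 CPM and 2216 to 2920.0 CPM.

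The defining genes of the frontal cortex again overlapped between the diets. *Gfap* lay at 20.9 to 81.7 CPM pre-KD (median 41.8) and 10.6 to 77.3 CPM post-KD (median 32.9), with a log2 difference of -0.29 ± 0.28, and its sign was the opposite of that in the hippocampus. *S100b* lay at 164 to 491 CPM (median 332) and 174 to 356 CPM (median 297), with a log2 difference of -0.26 ± 0.14 (unadjusted p = 0.0629). *Aqp4* lay at 23.8 to 52.1 CPM (median 41.6) and 24.8 to 69.4 CPM (median 38.8), and its fitted log2 difference of 0.20 ± 0.26 had the opposite sign of the difference in medians. These 3 genes had lower medians post-KD by less than the spread of their groups. *Aldh1l1* lay at 6.66 to 61.9 CPM (median 16.4) and 0.539 to 35.1 CPM (median 17.9), and *Sox9* at 51.5 to 104 CPM (median 77.1) and 55.0 to 139 CPM (median 83.2).

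**Figure D4:**
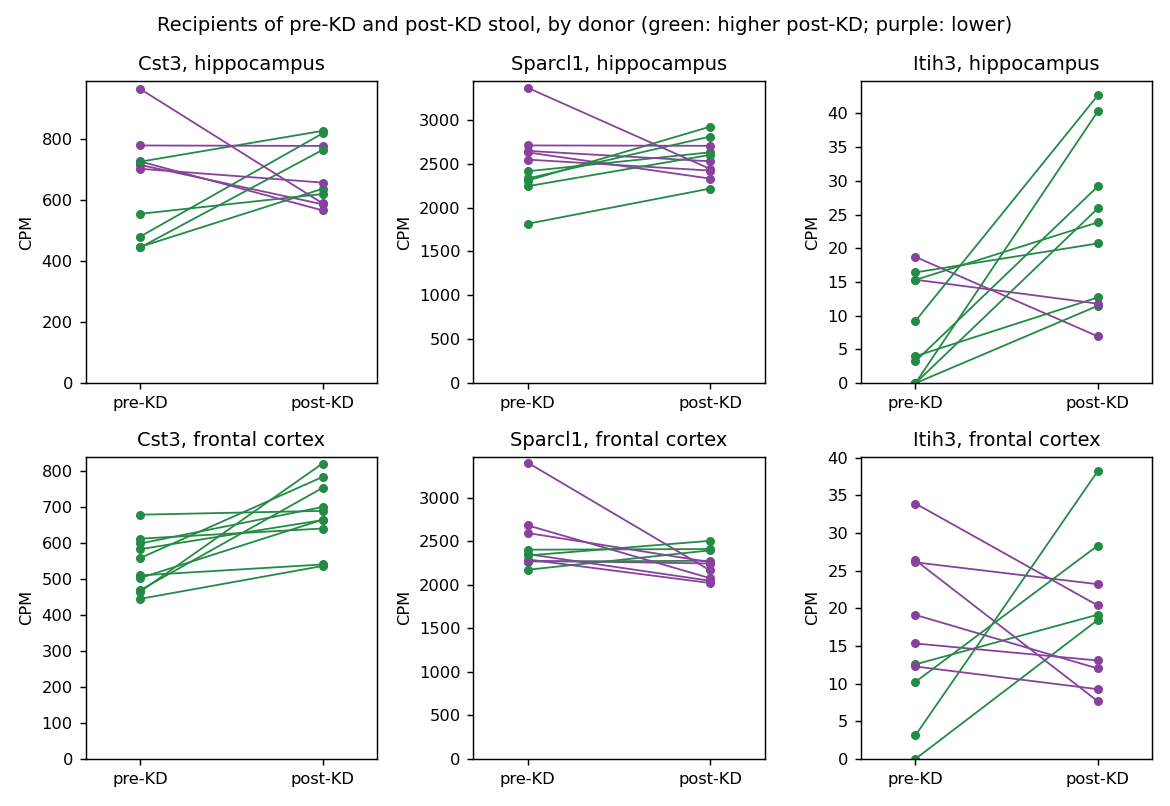
Level of *Cst3*, *Sparcl1* and *Itih3* (vertical axis, CPM, from 0) in recipients of pre-KD and post-KD stool, with a line for each of the 10 donors, green where the post-KD library is higher and purple where it is lower. *Cst3* in the frontal cortex is green for all 10 donors, from 444 to 678 CPM pre-KD up to 536 to 820.3 CPM post-KD, whereas *Cst3* in the hippocampus is green for 5 and *Itih3* in the hippocampus for 8.

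The size of change these libraries leave room for differed between members. The approximate 95% interval of the post-KD difference lay wholly within 1.5-fold in either direction for 14 of 35 members in the hippocampus and 19 in FX. *Apoe* was among the best bounded, with -0.16 to 0.24 on the log2 scale in the hippocampus and -0.14 to 0.18 in the frontal cortex, and *Clu* (clusterin, a secreted chaperone and lipid carrier) had -0.25 to 0.27 and -0.27 to 0.16. *Gfap* was far less bounded, with -0.41 to 0.84 and -0.84 to 0.27. *Aldh1l1* ran from -2.28 to 0.97 in the hippocampus and *Agt* from -2.04 to 1.52, so these intervals leave room for a several-fold fall in either gene.

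Whether the post-KD difference itself differed between the regions was tested with a term for each of the 20 cohorts. None of the 35 members passed the adjusted threshold, beside 0.0154% of 19422 genes, and 2 had an unadjusted p under 0.05 (0 to 3 with 1 donor left out), beside 2.22% of all genes and 2.72% of those kept by the expression filter. *Prdx6*, a peroxide-reducing enzyme that also acts on phospholipids, had a difference of changes (hippocampus minus frontal cortex) of -0.50 ± 0.23 on the log2 scale (unadjusted p = 0.0287, adjusted p = 1). Copies with like names (*Prdx6b* and *Prdx6-ps2*) are annotated, and how far their sequences match was not measured here. *Sparcl1* had 0.18 ± 0.09 (unadjusted p = 0.0389). For *Gfap*, whose signs were opposite, the difference was 0.67 ± 0.47 (unadjusted p = 0.155), and for *Cst3* it was -0.23 ± 0.15 (unadjusted p = 0.113), so neither was shown to differ between regions.

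Between the regions themselves, comparing hippocampus with frontal cortex within the 20 cohorts, 2 members passed the adjusted threshold, 1 in each direction. This is 5.71% of the list, beside 2.85% of 19422 genes. *S100b* was lower and *Cpe* higher in the hippocampus. An unadjusted p under 0.05 was reached by 12 members (9 higher and 3 lower in the hippocampus), 34.3% of the list beside 10.9% of all genes. Leaving out any 1 donor gave 8 to 10 members, fewer than with all donors, and the other settings 7 (without donors 9 and 10) to 14 (DESeq2). DESeq2 called 8 members, beside 5.32% of all genes, and edgeR without the cohort term 4, beside 9.96%. Abundant genes pass more easily: among genes averaging 100 counts or more, 12.3% passed the adjusted threshold and 29.8% the unadjusted one, beside 2 and 9 (50.0%) of the 18 members of that abundance. The median log2 difference was 0.11 over the members and -0.17 over all genes. Among the abundant genes it was 0.06 over the 18 members and -0.06 over all.

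*S100b* lay at 145 to 329.7 CPM (median 241) in the hippocampus and 164 to 491 CPM (median 316) in the frontal cortex. It was lower in the hippocampus in 16 of 20 cohorts, and 16 frontal cortical libraries lay above the hippocampal median, although the ranges overlapped. The log2 difference was -0.41 ± 0.10, so the frontal cortical level was 1.33-fold higher (adjusted p = 0.00316). Recipients of donor 5 contributed most to the call. Their hippocampal levels were 151 and 159.9 CPM and their frontal cortical levels 359 and 356 CPM, and without them the log2 difference was -0.33 (adjusted p = 0.0660). Oligodendrocytes also express *S100b*. The summed level of 8 oligodendrocyte genes was 1887 to 3789.5 CPM in the hippocampus and 2099.5 to 3925 CPM in the frontal cortex, none of the 8 passed the adjusted threshold (lowest adjusted p = 0.0551), 3 were lower and 1 higher in the hippocampus at an unadjusted p under 0.05 (median log2 difference over the 8 of -0.12), and their part in the *S100b* value was not tested.

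The sequences before the start of *S100b*, called between the regions in edgeR's test, and of *Gfap*, the classical astrocyte gene, are shown from RefSeq (GRCm38.p6) as the 250 bases upstream of the start that RefSeq annotates, 5′ to 3′ on the strand of the gene. The first lies at chr10:76253586-76253835 on the plus strand and the second at chr11:102897201-102897450 on the minus strand. GENCODE M21 extends *Gfap* further upstream, to 102900912, for a non-coding transcript, while both of its protein-coding transcripts start at or inside the RefSeq start. Capitals mark the nuclear factor I motif TTGGC or its reverse complement GCCAA, searched on both strands.
S100b: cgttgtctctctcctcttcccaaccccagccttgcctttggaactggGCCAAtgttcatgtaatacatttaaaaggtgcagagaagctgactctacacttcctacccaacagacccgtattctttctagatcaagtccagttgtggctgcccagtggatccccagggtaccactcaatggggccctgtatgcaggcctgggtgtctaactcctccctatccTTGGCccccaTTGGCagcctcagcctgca
Gfap: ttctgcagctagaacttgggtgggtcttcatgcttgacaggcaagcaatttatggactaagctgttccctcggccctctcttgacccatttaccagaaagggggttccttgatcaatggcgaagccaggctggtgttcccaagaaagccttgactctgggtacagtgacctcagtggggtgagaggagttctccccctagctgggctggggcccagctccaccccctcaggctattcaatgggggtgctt

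The *S100b* window held 3 matches, at -203 to -199, -29 to -25 and -19 to -15 from the start. The *Gfap* window held none, and none of the STAT element TTCNNNGAA, the SOX core ACAAT, the E-box CANNTG or the TATA box TATAAA, which says only that these letters are not in this window. The E-box had 1 match in the *S100b* window. Promoter windows were found for 28 of the 35 members (34 windows, some genes having more than 1 start), and TTGGC was in 17 of them (50.0%), beside 41.5% of 32851 promoters. The SOX core was in 2 of the 34 (5.88%), beside 27.7% of all. The E-box was in 19 (55.9%), beside 66.2%, the STAT element in 4 (11.8%), beside 7.02%, and the TATA box in 3 (8.82%), beside 12.4%. These are counts of letters and not of bound sites.

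*Cpe* lay at 835 to 1456 CPM (median 1198) in the hippocampus and 894 to 1211 CPM (median 971) in the frontal cortex. It was higher in the hippocampus in 17 of 20 cohorts, with a log2 difference of 0.21 ± 0.06, or 1.16-fold (adjusted p = 0.0261). The call was less firm than that of *S100b*. It was lost without recipients of donor 1, 2, 4, 5, 9 or 10, with adjusted p-values up to 0.114, while the log2 difference stayed at 0.19 to 0.25. It was also lost with edgeR's expression filter, without the libraries that stood apart and without donors 9 and 10 together (adjusted p up to 0.190). Neurons and the choroid plexus also make carboxypeptidase E. Of 8 neuronal genes 2 were lower in the hippocampus, *Nefm* (log2 difference -0.52) and *Rbfox3* (-0.34), and their sum was 5178 to 6297 CPM there and 5600.3 to 6739 CPM in the frontal cortex. The 6 choroid plexus genes summed to 496 to 4313 CPM in the hippocampus and 7.32 to 594 CPM in the frontal cortex, and 4 of them were higher in the hippocampus, led by *Folr1* (log2 difference 4.72), *Kl* (4.50) and *Kcnj13* (4.29), which had no count in 14, 13 and 13 of the 20 frontal cortical libraries. The part of these cells in the *Cpe* value was not tested.

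**Figure D5:**
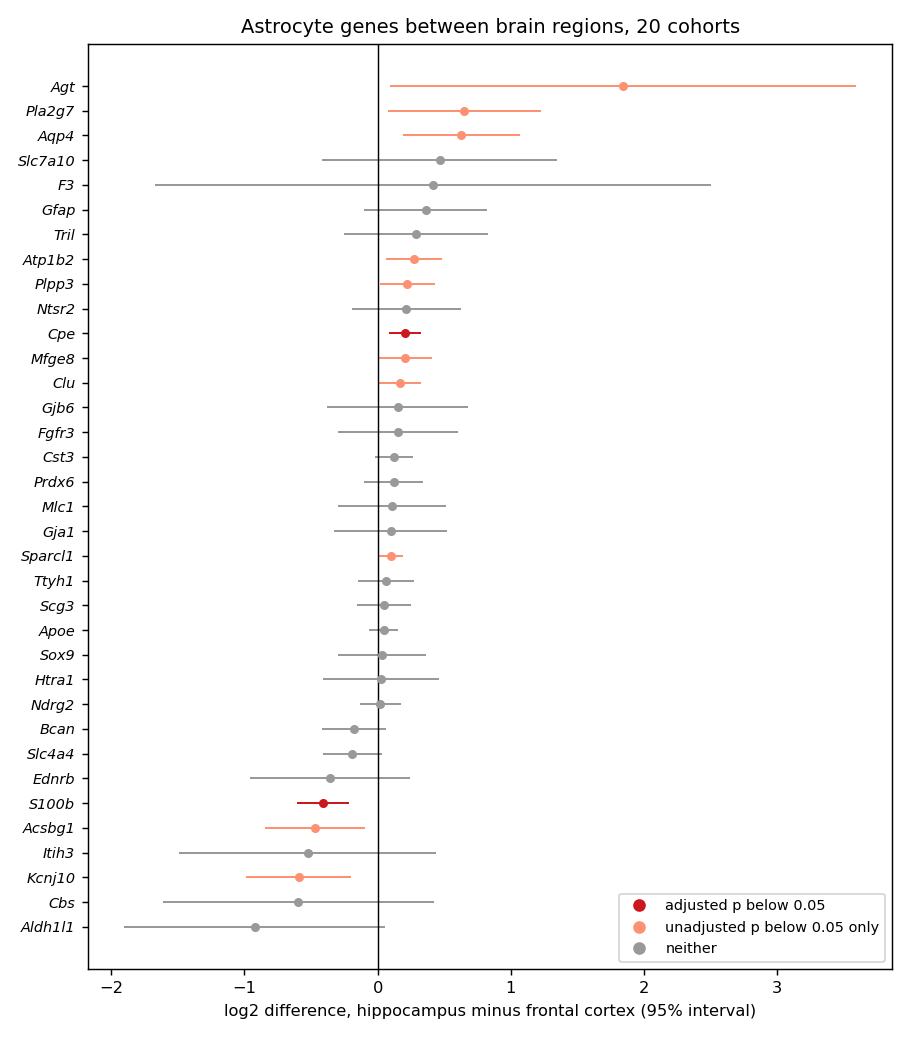
Log2 difference between hippocampus and frontal cortex (horizontal axis, positive where the hippocampus is higher) for the 35 astrocyte genes (rows, ordered by the difference), over 20 cohorts that gave both regions; points are estimates, bars approximate 95% intervals, dark red an adjusted p under 0.05 and light red an unadjusted p under 0.05 only. *S100b* (-0.41) and *Cpe* (0.21) are dark red and 10 further genes light red, among them *Agt* (1.84) with a wide bar.

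The genes of potassium and water handling went both ways between regions. *Kcnj10*, the inward rectifier that carries potassium uptake, lay at 17.5 to 97.4 CPM in the hippocampus and 37.8 to 157 CPM in the frontal cortex, with a log2 difference of -0.59 ± 0.20 (adjusted p = 0.0878). *Aqp4* lay at 12.1 to 96.8 CPM (median 71.4) and 23.8 to 69.4 CPM (median 39.7), with 0.63 ± 0.22 (adjusted p = 0.126), and no frontal cortical library reached the hippocampal median. *Kcnj10* was lower in the hippocampus in 14 cohorts and *Aqp4* higher in 17. Neither passed the threshold in the blocked edgeR test, but both did in DESeq2 (adjusted p = 0.0376 and 0.0156). *Atp1b2*, at 164 to 408 CPM and 143 to 262 CPM, had 0.27 ± 0.11 (adjusted p = 0.217, and 0.0103 in DESeq2) and was higher in 17 of 20 cohorts.

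Of the metabolic genes *Acsbg1*, a long-chain acyl-CoA synthetase, was lower in the hippocampus in 17 of 20 cohorts, with a log2 difference of -0.47 ± 0.19 (adjusted p = 0.250). *Plpp3*, a lipid phosphate phosphatase, had 0.22 ± 0.10 and *Pla2g7* 0.65 ± 0.29. Of the 9 secreted and matrix proteins, 7 had a difference above 0, and *Sparcl1* (0.10 ± 0.05), *Clu* (0.17 ± 0.08), *Mfge8* (0.20 ± 0.10) and *Agt* (1.84 ± 0.89) had an unadjusted p under 0.05. None of these passed the adjusted threshold in edgeR, while in DESeq2 *Acsbg1* (adjusted p = 0.0488), *Sparcl1* (0.0208) and *Agt* (0.0228) did. In DESeq2 the log2 differences between regions lay higher by a median of 0.03, and that of *Sparcl1* was 0.13. *Agt* rests on 261 counts in all 20 hippocampal libraries and 96 in the frontal cortical ones.

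The remaining defining genes did not pass the test between regions. *Gfap* had a log2 difference of 0.36 ± 0.24 (adjusted p = 0.658), higher in the hippocampus in 13 of 20 cohorts, and *Sox9* 0.03 ± 0.17, whose sign turned without recipients of donor 2, 3, 4 or 10 (-0.02 at the lowest). *Aldh1l1* had -0.92 ± 0.50 (adjusted p = 0.513), lower in 16 of 20 cohorts. Its exons overlap antisense transcripts, as do those of *Ttyh1*, *Fgfr3*, *Tril*, *Slc7a10* and *Pla2g7*, and the strand setting of the counting is not given in the sources used here. The antisense partners of *Aldh1l1* and *Pla2g7* had 0 counts. *Aldh1l1* also shares 105 exon bases with *Gm45901* on its own strand, which had 0 counts too. For *Slc7a10*, the neutral amino acid transporter for D-serine, the overlap is with *Lrp3*, which is itself expressed here. *Apoe* (0.05 ± 0.06), *Ndrg2* (0.02 ± 0.08) and *Scg3* (0.05 ± 0.10) had small differences with narrow intervals, and the interval lay within 1.5-fold for 18 of 35 members.

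A further 30 astrocyte genes outside the list, among them the glutamate transporter genes *Slc1a2* and *Slc1a3* and the glutamine synthetase gene *Glul*, were counted for comparison. None passed the adjusted threshold post-KD in either region, and the median log2 differences were -0.02 in the hippocampus and -0.03 in FX. Between regions 4 passed, 13.3% of the 30, beside 2.85% of all genes tested and 12.3% of those averaging 100 counts or more. *Hopx* (1.75 ± 0.27), *Nfib* (0.83 ± 0.09) and *Mt2* (0.46 ± 0.10) were higher in the hippocampus, and *Dio2* (-0.84 ± 0.24), the deiodinase that activates thyroid hormone, was lower. *Nfib*, a nuclear factor I gene that neurons of the hippocampus also express, lay at 314 to 592 CPM there and 162 to 367 CPM in the frontal cortex, higher in 20 of 20 cohorts.

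Of 35 genes reported to rise in reactive astrocytes, 30 had at least 10 counts over the 40 libraries. None passed the adjusted threshold post-KD or between regions. At an unadjusted p under 0.05 there were 2 higher and 2 lower in the hippocampus post-KD (*Cxcl10*, *Fbln5*, *Clcf1* and *B3gnt5*, named after their values were seen), all with no count in most libraries, and 2 higher in the frontal cortex (*H2-D1* and *Cd109*). These are 4 of 27 and 2 of 26 genes tested, beside 10.1% and 9.68% of all genes. Their summed level was low, at 89.6 to 257 CPM in the hippocampus and 42.9 to 179 CPM in the frontal cortex. The HX pre-KD libraries lay at 134 to 231 CPM (median 151) and the HX post-KD libraries at 89.6 to 257 CPM (median 196). The post-KD range contained the pre-KD one, with a higher median. The FX pre-KD libraries lay at 42.9 to 149 CPM (median 116) and the FX post-KD libraries at 105 to 179 CPM (median 147), which overlap. The median log2 difference post-KD was 0.21 over the 27 genes tested in the hippocampus and 0.28 over the 26 tested in the frontal cortex, most of them at very few counts.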

How the data were processed

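Reads were processed by the authors, who name STAR 2.5.2a on mm10 (GRCm38) and HTSeq 0.6.0 in the processing notes and methods; another part of the sources names a different kit and aligner. The deposited tables hold raw counts per gene, which the authors did not normalize. Members and gene lists were chosen with earlier results of these data known. Genes with at least 10 summed counts were tested with edgeR 4.0.16 (quasi-likelihood, TMM, Benjamini-Hochberg over all genes; called at an adjusted p under 0.05): condition within each region, region with a term per cohort, and the difference of changes. Both regions of a cohort share donor and condition; the methods do not state that the same mice gave both. Residual correlations within cohorts were -0.03 to 0.24 (pre-KD) and 0.00 to 0.05 (post-KD), with 1 of 20 above 0.1. Standard errors were derived from the fit and intervals are approximate. Of 47643 identifiers 47224 matched GENCODE M21. Members given lowest and highest levels were *Gfap*, *Aqp4*, *S100b*, *Aldh1l1* and *Sox9*, or were called or had an unadjusted p under 0.05 in a comparison. Other members were given values for their rank, role, interval width or an outlying library. Of each other list the 3 largest called differences per direction were given. The code was tested on simulated data. DESeq2 1.42.0 and other settings were alternatives.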

Additional observations from a re-analysis of the deposited data

Results flagged for a closer look

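Of 140 sets of 10 libraries (35 genes in 4 groups), 13 had a library whose gap to the nearest other exceeded Dixon's 95% limit, and in all 13 it was the highest library. Chance flags about 1 in 20 such sets where values are normally distributed, and the rate for skewed values was not tested. Among recipients of donor 8, *Mfge8* reached 462 CPM (HX pre-KD), *Gja1* 105 and *Tril* 124 (HX post-KD) and *Sparcl1* 3403 (FX pre-KD). Among those of donor 9, *Tril* reached 99.3 CPM (HX pre-KD) and 77.8 (FX post-KD), and *Kcnj10* 157 (FX post-KD). The HX pre-KD library of donor 5, which stood apart on the principal components, held the high *Ednrb* value of 80.8 CPM. The others were *Gjb6* at 106 CPM (HX post-KD, donor 4), *Agt* at 37.0 (HX post-KD, donor 6), *Gja1* at 99.98 (FX pre-KD, donor 10), *Htra1* at 106 (FX pre-KD, donor 6) and *Acsbg1* at 139 (FX post-KD, donor 1).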

How the results depend on the processing

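The counts of members called post-KD (HX 0, FX 0) and of members whose change differed between regions, 0, were 0 under every alternative run: other size factors, no filter or edgeR's filter on low counts, DESeq2, *Gm42418*, which took 8.63% or more of the counts, left out, the Y-linked level as a covariate (post-KD comparisons), and leaving out each donor. With the donor as a replicate block the post-KD counts were again 0 and 0. Correlations of pre-KD with post-KD deviations were -0.06 to 0.03, with 0 of 10 donors above 0.1 in either region. A broad effect of the donor across genes was thus not seen. Y-linked counts were nonetheless high in the pre-KD and the post-KD libraries of donors 9 and 10, so for these the donor number does tie the conditions. Between regions 2 members were called in the main test. The number was 1 with edgeR's filter, 8 with DESeq2 (beside 5.32% of all genes) and 4 with no replicate block (beside 9.96%). It was 1 without the libraries that stand apart and 1 without donors 9 and 10, both chosen after seeing the data. Leaving out 1 donor gave 0 to 3. None was called without donor 5, *S100b* alone without donor 1, 2, 4 or 10, *S100b* and *Aqp4* without donor 9, and *Kcnj10* joined the list without donor 3 or 8. *S100b* was called under 17 of 18 alternatives (log2 difference -0.46 to -0.33) and *Cpe* under 9 of 18. The sign of *Sox9*, never called, turned post-KD in the hippocampus without donors 9 and 10 (-0.10) and across the values leaving out 1 donor (-0.026 to 0.20 in the hippocampus, -0.017 to 0.24 for the frontal cortex, -0.020 to 0.14 between regions). The cause of these shifts was not tested.

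Genes under 100 counts per library bound the post-KD change least. Pooled mice leave no measure of spread within a cohort.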

Other observations

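In the frontal cortex the post-KD library of donor 1 was the highest for 6 of 35 members, the post-KD library of donor 3 was the lowest for 7, and the pre-KD library of donor 1, which stood apart on the principal components, was the lowest for 8. In the hippocampus the post-KD library of donor 8 was the highest for 6 members and the pre-KD library of donor 8 for 5. The post-KD library of donor 7 was the lowest for 6, and the pre-KD library of donor 5 was the highest for 2 and the lowest for 5. The pre-KD libraries of donor 8 held the highest sum over the members in both regions (10915 CPM in the hippocampus and 10452 CPM in FX). No explanation was tested for these values.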
